A study of Mus musculus with 9 samples.

Results

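The Siglec family comprised 6 genes here (Siglec1, Siglech, Siglece, Siglecg, Cd22 and Cd33), taken from a named list and matched to probe sets with a single gene symbol, out of 19938 genes measured. Each of the 6 had 1 such probe set. Their RNA was measured in T cell zone macrophages (TZM) of the lymph node, in microglia of the brain and in CD8a+DC, a cross-presenting type of dendritic cell, with 3 Affymetrix arrays per population and 9 in all. All animals were CX3CR1 gfp+/- mice, in which a green fluorescent protein (GFP) reporter stands in for 1 copy of the fractalkine receptor gene, and no other treatment is named. TZM were sorted as GFP-high, MertK+, CD11b+ cells without surface CD169, microglia as GFP-high, CD11b+, CD45+ cells, and CD8a+DC as CD8a+ cells with high CD11c and high MHC class II but no CD64. The tissue of the CD8a+DC is lymph node in the sample fields and spleen in the sorting protocol. The replicates are labelled biological, and whether each pooled several animals is not stated. CD169 is the product of Siglec1, so the level of Siglec1 in TZM is described below and not tested.

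Siglecs are lectins of the immunoglobulin superfamily that bind sialic acids, the terminal sugars of many glycoproteins and glycolipids. Most carry inhibitory tyrosine motifs in the cytoplasmic tail that recruit the phosphatases SHP-1 and SHP-2, encoded by Ptpn6 and Ptpn11. Others pair with the activating adaptor DAP12, encoded by Tyrobp, and sialoadhesin (CD169) mainly serves adhesion and capture on macrophages. In the brain they are best known on microglia, in lymphoid tissue on B cells, sinus macrophages and plasmacytoid dendritic cells.

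Marker genes were read against the labels. The mean level of 8 TZM gate and macrophage genes (log2, after robust multi-array averaging, RMA) was 10.38 to 10.74 over the TZM arrays, 11.23 to 11.34 over the microglia arrays and 5.21 to 5.52 over the CD8a+DC arrays. That of 7 microglia genes was 6.49 to 6.64, 10.82 to 10.97 and 4.76 to 4.86 in the same order, and that of 8 type 1 dendritic cell genes was 5.72 to 5.90, 5.64 to 5.78 and 9.39 to 9.52. The macrophage list holds Mertk, part of the TZM gate, and Fcgr1, which encodes the CD64 absent from the CD8a+DC gate, so the sort itself set part of its difference. Of the 7 microglia genes, 4 were called higher in TZM than in CD8a+DC, among them Tmem119 (means of 9.18 in TZM, 11.56 in microglia and 4.54 in CD8a+DC) and P2ry12 (9.80, 11.48 and 4.82). Siglec1, whose product was selected against in TZM, was highest in TZM. Xcr1, Sall1 and Slc2a5 in TZM, Xcr1, Clec9a, Zbtb46 and Itgae in microglia, and Sall1, Fcrls, Slc2a5, Mertk, Fcgr1 and C1qa in CD8a+DC were at or below 4.54, a level that 95% of 1027 olfactory receptor genes did not exceed. That level is a yardstick for dim probe sets and no detection call. The choroid plexus gene Ttr was at 12.15, 5.48 and 11.83 in the microglia arrays, and the granulocyte gene S100a8 at 5.89, 9.28 and 7.32 in the TZM arrays. Of 5 choroid plexus genes, Ttr was the 1 called higher in microglia than in CD8a+DC, and Kl and Clic6 were at or below the yardstick in microglia. Of 9 granulocyte genes, 6 were at or below it in TZM, and 2, S100a8 and S100a9, were called higher in TZM than in CD8a+DC. A population of sorted cells is a bulk sample, in which fewer cells of a type and less RNA per cell cannot be told apart.

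Each population had its own combination of Siglec transcripts. Microglia had the highest levels of Cd33, Siglece and Siglech. TZM shared the high Cd33 level, had low Siglece, and were alone in a raised level of Cd22 and of Siglec1. CD8a+DC had Siglech at a level near that of TZM, and the lowest levels of Cd33 and Siglece.

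**Figure D1:**
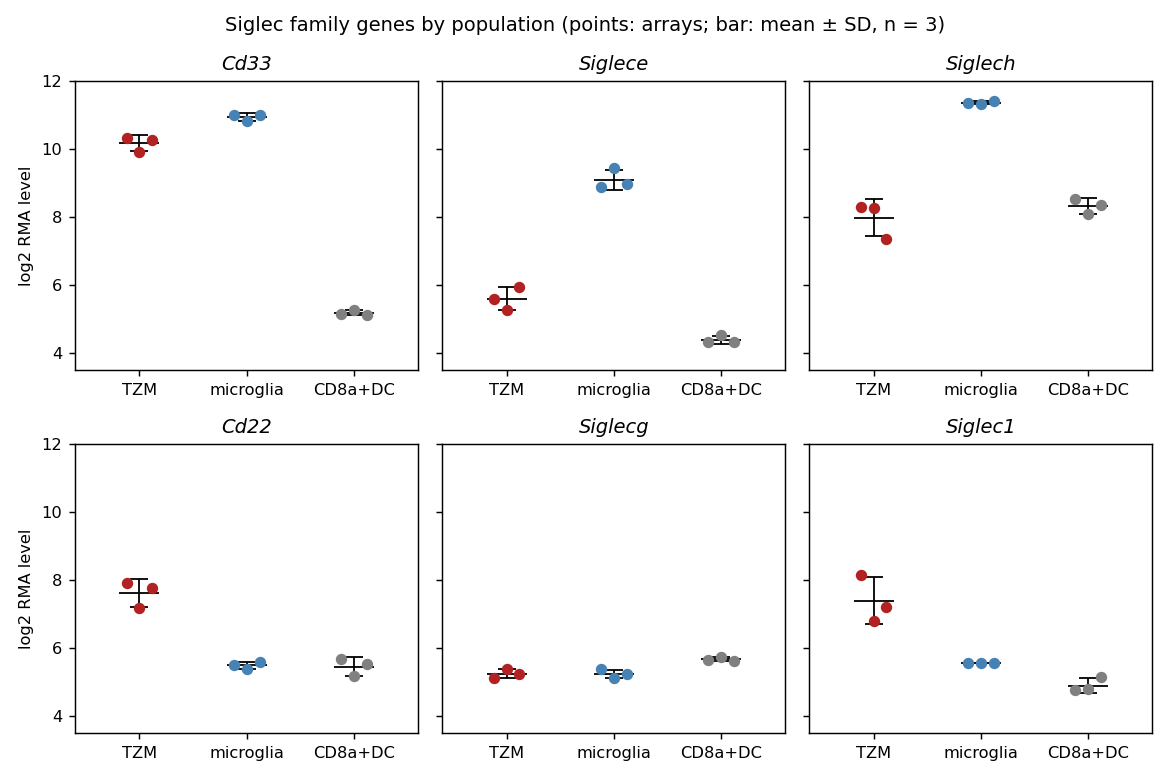
Log2 RMA level (vertical axes) of the 6 Siglec genes in TZM, microglia and CD8a+DC; points are arrays and bars give the mean ± SD of 3 arrays. Cd33 lies above 9.8 in all TZM and microglia arrays and below 5.3 in CD8a+DC, whereas Cd22 is above 7 in the TZM arrays alone.

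The calls below rest on limma fitted to all genes, and a gene was called where its p, adjusted by Benjamini-Hochberg, was below 0.05 and its log2 fold change reached 1 in either direction. For TZM against CD8a+DC, 3 of 5 members other than Siglec1 were called, and all were higher in TZM, beside 8.74% of all genes called in either direction, 4.71% higher and 4.03% lower. Against microglia, 3 of 5 were called, 1 higher and 2 lower in TZM, beside 7.65% of all genes (4.25% higher, 3.4% lower). For microglia against CD8a+DC, 3 of 6 were called, all higher in microglia, beside 11.2% of all genes (5.15% higher, 6.01% lower). The 3 comparisons share arrays with each other and are not independent. The members were chosen with earlier results of these data known, so the counts are descriptions and no test of the family. All genes also include many dim ones. Among the 7678 genes that reached a level of 6 in at least 3 arrays, 1525 were called for TZM against CD8a+DC and 1341 for TZM against microglia. For microglia against CD8a+DC the count was at least 1981 under every alternative run, this filter included. The share called was thus larger among these genes than over all genes. Of the 6 members, 5 reached a level of 6 in at least 3 arrays, and 3 of these (Siglec1, Siglece and Cd22) did so through the arrays of 1 population alone. Siglecg did not reach it in any array.

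**Figure D2:**
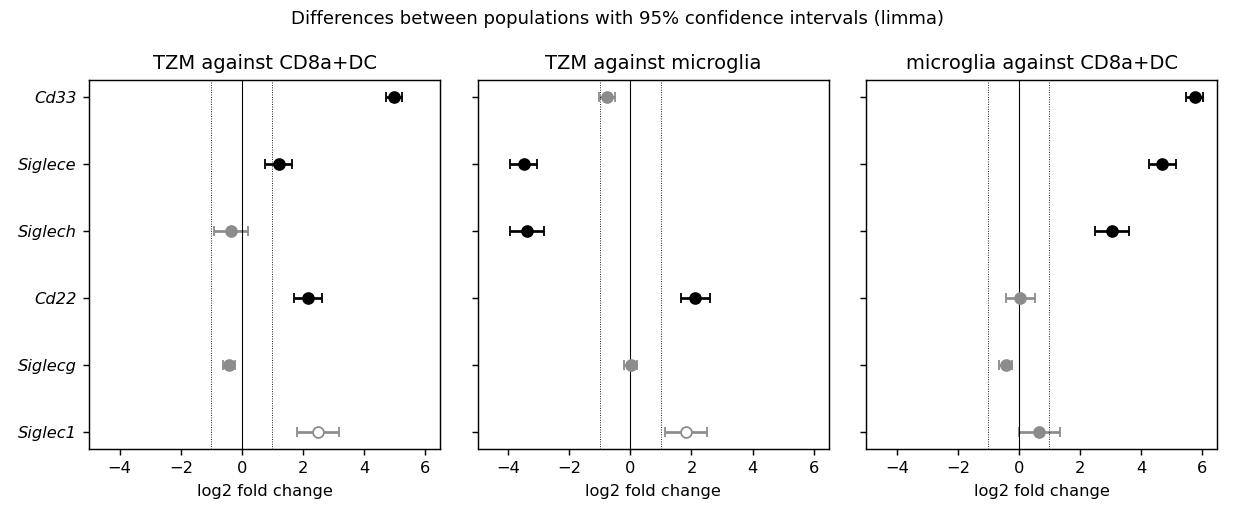
Log2 fold change (horizontal axes, first-named population minus the second) of each Siglec gene with its 95% confidence interval; black points passed both call criteria, grey points did not, open points mark Siglec1 where it was not tested, and dotted lines mark a log2 fold change of 1. Cd33 and Siglece stand to the right in microglia against CD8a+DC, at 5.76 and 4.69.

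Cd33 (probe set 10562709, chromosome 7) encodes a sialic acid-binding receptor of myeloid cells. Its levels were 10.33, 9.90 and 10.28 in TZM, 11.01, 10.82 and 11.00 in microglia, and 5.16, 5.28 and 5.12 in CD8a+DC. All TZM and microglia arrays lay far above the CD8a+DC arrays, and every microglia array lay above every TZM array. Cd33 was 31.7-fold higher in TZM than in CD8a+DC (log2 fold change 4.99, SE 0.12, limma adjusted p = 4.4e-08). In microglia it was 54.0-fold higher than in CD8a+DC (5.76, SE 0.12, adjusted p = 9.5e-09). TZM against microglia gave -0.77 (95% interval -1.04 to -0.50, adjusted p = 0.002), a difference under the fold minimum although the arrays did not overlap.

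The promoter of Cd33 was set beside that of Siglecf, a paralogue in the same gene cluster. The reason was a stretch of sequence that they share, although of these genes only Cd33 was called in any comparison. Siglecf, known from eosinophils and alveolar macrophages, was at 4.69, 4.77 and 4.92 in TZM, 5.35, 5.59 and 5.70 in microglia, and 4.89, 4.92 and 4.92 in CD8a+DC. It was not called in any comparison. The log2 fold changes of Siglecf were -0.12 (TZM against CD8a+DC, limma adjusted p = 0.52), -0.75 (TZM against microglia, adjusted p = 0.00074) and 0.63 (microglia against CD8a+DC, adjusted p = 0.0014). As for Cd33, every microglia array lay above every array of the other populations, but for Siglecf these differences were under the fold minimum. The windows below run from 250 bases before to 50 after the gene start, per RefSeq on GRCm38.p6, and are written in the direction of the gene. Capitals mark the core letters GGAAGT, recognised by ETS factors such as the myeloid regulator PU.1, and TGTGGT, recognised by RUNX factors, or their reverse complements ACTTCC and ACCACA. Siglech and Siglece are shown as the other members that were higher in microglia than in CD8a+DC.
Cd33 (chr7:43533122-43533421, minus strand): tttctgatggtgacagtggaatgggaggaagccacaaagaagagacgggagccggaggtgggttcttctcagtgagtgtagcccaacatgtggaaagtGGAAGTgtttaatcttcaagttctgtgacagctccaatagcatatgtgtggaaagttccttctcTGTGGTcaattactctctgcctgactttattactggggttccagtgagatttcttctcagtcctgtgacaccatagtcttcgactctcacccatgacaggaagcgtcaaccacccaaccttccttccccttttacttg
Siglecf (chr7:43351091-43351390, plus strand): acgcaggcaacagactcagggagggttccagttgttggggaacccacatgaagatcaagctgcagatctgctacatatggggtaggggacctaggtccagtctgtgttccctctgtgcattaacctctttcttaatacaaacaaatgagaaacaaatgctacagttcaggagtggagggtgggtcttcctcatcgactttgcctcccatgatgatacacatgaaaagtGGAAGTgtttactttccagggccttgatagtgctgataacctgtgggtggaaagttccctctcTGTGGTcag
Siglech (chr7:55767934-55768233, plus strand): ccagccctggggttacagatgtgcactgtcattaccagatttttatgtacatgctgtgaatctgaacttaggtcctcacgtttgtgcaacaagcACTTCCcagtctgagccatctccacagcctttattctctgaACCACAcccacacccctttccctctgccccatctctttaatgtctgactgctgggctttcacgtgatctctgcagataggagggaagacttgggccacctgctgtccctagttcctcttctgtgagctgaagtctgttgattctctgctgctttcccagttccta
Siglece (chr7:43660112-43660411, minus strand): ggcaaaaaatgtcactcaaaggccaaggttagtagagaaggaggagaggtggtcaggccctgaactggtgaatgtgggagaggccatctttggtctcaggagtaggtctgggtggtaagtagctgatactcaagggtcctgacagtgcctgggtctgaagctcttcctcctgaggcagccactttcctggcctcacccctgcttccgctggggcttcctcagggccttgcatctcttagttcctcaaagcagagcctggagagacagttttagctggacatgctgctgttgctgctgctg

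The best local match between the Cd33 and Siglecf windows spanned 85 aligned positions, of which 65 were identical (76.5%). It ran from -165 to -81 relative to the start of Cd33 and from -35 to 48 relative to the start of Siglecf. Among the windows of Cd22, Cd33, Mag, Siglece, Siglecf, Siglecg and Siglech, the next best match by alignment score was between Mag and Siglece. It had 24 identical of 32 aligned positions. Siglec1 and Siglec15 had no window in this set. Within the Cd33 and Siglecf stretch both windows held both cores in the same order. Siglech held both cores as reverse complements, at -156 and -115, and the windows of Siglece, Cd22 and Siglecg held neither. Of the 3 Mag windows, 1 held the RUNX core as a reverse complement, at -89. Of 32851 promoter windows in the RefSeq table, 23.8% held the ETS core, 16.8% the RUNX core and 4.2% both, on either strand. The cores were picked after the windows had been read, and a match describes letters in a window, not a binding site.

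Siglece (probe set 10562720, chromosome 7) encodes an inhibitory Siglec of mouse neutrophils, monocytes and macrophages. It was at 5.60, 5.27 and 5.94 in TZM, 8.88, 9.43 and 8.96 in microglia, and 4.34, 4.54 and 4.32 in CD8a+DC. The populations were ordered microglia, TZM, CD8a+DC with no overlap between neighbours. Siglece was 11.2-fold lower in TZM than in microglia (log2 fold change -3.49, SE 0.19, adjusted p = 4.8e-06). Relative to CD8a+DC it was 2.30-fold higher in TZM (1.20, SE 0.19, adjusted p = 0.0023) and 25.8-fold higher in microglia (4.69, SE 0.19, adjusted p = 4.4e-07). The CD8a+DC mean of 4.40 was below the olfactory receptor yardstick of 4.54, and folds against such dim levels tend to understate a difference.

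Siglech (probe set 10553559, chromosome 7) encodes a mouse Siglec without inhibitory motif that signals through DAP12 and is widely used as a marker of plasmacytoid dendritic cells and of microglia. Its levels were 8.31, 8.26 and 7.35 in TZM, 11.36, 11.32 and 11.41 in microglia, and 8.53, 8.08 and 8.35 in CD8a+DC. Microglia stood apart from both others, whereas TZM and CD8a+DC arrays overlapped. TZM replicate 3 was the lowest of the 9 arrays. Siglech was 10.5-fold lower in TZM than in microglia (log2 fold change -3.39, SE 0.24, adjusted p = 2.1e-05) and 8.23-fold higher in microglia than in CD8a+DC (3.04, SE 0.24, adjusted p = 2.4e-05). TZM and CD8a+DC differed by -0.35 (95% interval -0.90 to 0.21, adjusted p = 0.41). Leaving out single arrays gave -0.51 to -0.04, the latter without TZM replicate 3.

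Plasmacytoid dendritic cell genes were read beside Siglech. The mean of 8 such genes was 7.03 to 7.29 over the TZM arrays, 6.49 to 6.52 over microglia and 7.63 to 7.76 over CD8a+DC. None of the 8 was at or below the yardstick in TZM or CD8a+DC, and Ccr9 and Spib were in microglia. Ccr9, a homing receptor of these cells, was at 4.35, 5.19 and 5.40 in TZM and at 7.22, 7.18 and 6.99 in CD8a+DC (log2 fold change -2.15, adjusted p = 0.00089). Ly6d averaged 5.29 in TZM and 8.02 in CD8a+DC (-2.73, adjusted p = 3.7e-07). In all, 4 of the 8 were called lower in TZM than in CD8a+DC and 2 higher. The higher ones were Bst2, which encodes tetherin, with means of 10.62 in TZM and 8.76 in CD8a+DC (1.87, adjusted p = 3.2e-07), and the transcription factor Tcf4, with 9.04 and 7.52 (1.51, adjusted p = 0.00022). Their part in the Siglech level of CD8a+DC was not tested.

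Cd22 (probe set 10562132, chromosome 7) encodes an inhibitory co-receptor of the B cell receptor. It was at 7.92, 7.16 and 7.77 in TZM, 5.51, 5.38 and 5.58 in microglia, and 5.67, 5.16 and 5.53 in CD8a+DC. Every TZM array lay above every array of both other populations, which overlapped with each other. Cd22 was 4.48-fold higher in TZM than in CD8a+DC (log2 fold change 2.16, SE 0.20, adjusted p = 0.0001) and 4.37-fold higher than in microglia (2.13, SE 0.20, adjusted p = 0.00013). Microglia against CD8a+DC gave 0.04 (95% interval -0.43 to 0.51, adjusted p = 0.94).

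B cell genes gave a mixed picture beside Cd22. The mean of the 11 measured was 5.21 to 5.42 over the TZM arrays, 4.73 to 4.89 over microglia and 5.03 to 5.10 over CD8a+DC. In TZM 3 of the 11 were called higher and 2 lower than in CD8a+DC, and 2 were called higher and 1 lower than in microglia. Cd79b, a signalling chain of the B cell receptor, was at 9.69, 8.27 and 9.86 in TZM, 7.56, 8.48 and 7.50 in microglia, and 6.43, 7.01 and 6.44 in CD8a+DC. It was higher in TZM than in CD8a+DC (log2 fold change 2.65, adjusted p = 0.0027) and not called against microglia (1.43, adjusted p = 0.055). The partner chain Cd79a was at 4.55, 4.94 and 4.89 in TZM, 3.40, 3.69 and 3.94 in microglia, and 3.87, 3.93 and 4.21 in CD8a+DC. Pax5, the B lineage transcription factor, was at 4.87, 4.56 and 4.68 in TZM, with means of 4.12 in microglia and 4.33 in CD8a+DC. Among the TZM arrays, replicate 2 was the lowest for Cd22, Cd79b and Pax5 and the highest for Cd79a, Ms4a1, Fcer2a, Cr2, Ebf1, Vpreb3 and Bank1. Cr2 and Ebf1 were at or below the yardstick in TZM. Ms4a1, which encodes CD20, had a mean of 4.82 in TZM, 4.03 in microglia and 7.11 in CD8a+DC. The part of B cell RNA in the Cd22 level of TZM was not tested.

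Siglecg (probe set 10552380, chromosome 7) encodes an inhibitory Siglec of B cells and dendritic cells that binds CD24. Its levels were 5.11, 5.37 and 5.24 in TZM, 5.37, 5.10 and 5.23 in microglia, and 5.64, 5.74 and 5.62 in CD8a+DC. All arrays lay within a narrow band, with the CD8a+DC arrays at its top. The log2 fold change was -0.43 for TZM against CD8a+DC (adjusted p = 0.01) and -0.43 for microglia against CD8a+DC (adjusted p = 0.0077), both under the fold minimum. TZM and microglia differed by 0.01 (95% interval -0.20 to 0.22, adjusted p = 0.98).

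Siglec1 (probe set 10487823, chromosome 2) encodes sialoadhesin, CD169, which marks subcapsular sinus and medullary macrophages of the lymph node. Its levels were 8.15, 6.80 and 7.21 in TZM, although these cells were sorted for the absence of surface CD169. In microglia they were 5.56 in all 3 arrays and in CD8a+DC 4.76, 4.78 and 5.14. The TZM arrays lay above all others and were the most spread of the populations (7.38 ± 0.69, SD, n = 3, against 5.56 ± 0.00 in microglia and 4.89 ± 0.22 in CD8a+DC). As a description, TZM minus CD8a+DC was 2.49 and TZM minus microglia 1.82 on the log2 scale. Microglia against CD8a+DC, which the CD169 gate does not touch, gave 0.67 (95% interval -0.01 to 1.35, adjusted p = 0.15). That p rests on a spread shared with the TZM arrays: it was 0.006 with only the compared populations in limma and 0.01 without TZM replicate 1, while the difference stayed under the fold minimum in both. The deposited value was identical in the 3 microglia arrays, as it was for 415 of 19938 genes, so their SD of 0 does not measure biological spread. That SD also enters these p-values, most directly the 0.006, so they may be too small.

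Genes of sinus and marginal zone macrophages were read beside Siglec1. The mean of 7 such genes was 5.20 to 5.70 over TZM, 4.67 to 5.01 over microglia and 4.23 to 4.24 over CD8a+DC. Of the 7, 4 were called higher in TZM than in CD8a+DC, and 3 were called higher and 1 lower than in microglia. Cd209b, the lectin SIGN-R1 in mouse, was at 7.45, 5.33 and 5.78 in TZM, 3.90, 3.67 and 4.01 in microglia, and 3.72, 3.64 and 3.60 in CD8a+DC. Siglec1 and Cd209b were both highest in TZM replicate 1 and lowest of the TZM arrays in replicate 2. The other genes of the list did not share that order apart from Cd209a: Marco, Lyve1 and Vsig4 were highest of the TZM arrays in replicate 2, and Cd5l and Mrc1 were lowest in replicate 3. Marco, a scavenger receptor, was at 5.18, 5.29 and 4.97 in TZM with means of 3.96 in microglia and 4.12 in CD8a+DC, and Cd5l at 5.20, 5.17 and 4.72 with means of 3.86 and 3.78. Vsig4 was at or below the yardstick in TZM. The part of such cells in the Siglec1 level of TZM was not tested.

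**Figure D3:**
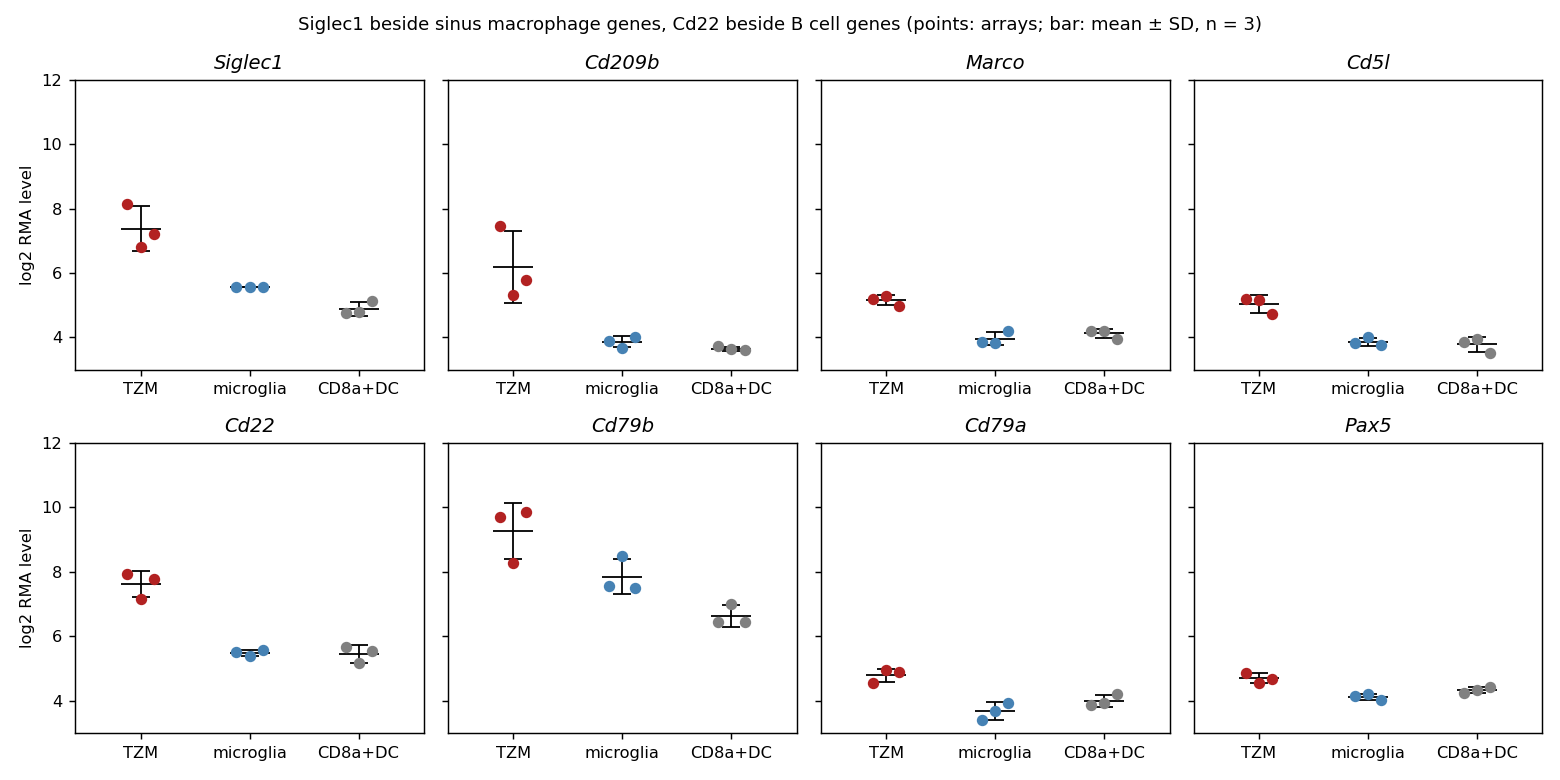
Log2 RMA level (vertical axes) of Siglec1 beside the sinus macrophage genes Cd209b, Marco and Cd5l (top) and of Cd22 beside the B cell genes Cd79b, Cd79a and Pax5 (bottom) in TZM, microglia and CD8a+DC; points are arrays and bars the mean ± SD of 3 arrays. The TZM arrays spread widely in Siglec1 (6.80 to 8.15) and Cd209b (5.33 to 7.45), while Pax5 stays between 4.56 and 4.87. Only 3 genes of each list are drawn. Of the rest, Fcer2a, Bank1 and Mrc1 were called higher in TZM than in CD8a+DC, and Ms4a1 and Fcrla lower. Against microglia, Fcer2a was called higher in TZM, and Bank1 and Lyve1 lower.

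The remaining family genes measured, Mag and Siglec15, were not called in any comparison. Mag, the Siglec of myelin, was at 5.36, 4.74 and 5.35 in TZM, 5.22, 5.25 and 5.29 in microglia, and 4.55, 4.49 and 4.25 in CD8a+DC. Its log2 fold changes of 0.72 (TZM against CD8a+DC, adjusted p = 0.014) and 0.82 (microglia against CD8a+DC, adjusted p = 0.0058) were under the fold minimum. The CD8a+DC mean of 4.43 was below the yardstick, so both differences may be understated. Siglec15, known from osteoclasts, averaged 6.11 ± 0.15 in TZM, 6.04 ± 0.15 in microglia and 5.97 ± 0.13 in CD8a+DC (SD, n = 3 each), with adjusted p-values of 0.49 to 0.79 over the 3 comparisons. In the RefSeq gene order of chromosome 7, Cd22 and Mag are direct neighbours among protein-coding genes, as are Siglecf and Siglecg, while 9 such genes lie between Siglecg and Cd33 and 4 between Cd33 and Siglece. Cd22 was called in 2 comparisons and its neighbour Mag in 0. Siglech lies apart on the same chromosome, with 190 protein-coding genes between it and Siglece, and Siglec1 is on chromosome 2.

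The genes closest to each member in pattern were found by the root mean square difference of gene-centred levels over the 9 arrays. For Cd33 they were Ctsd (0.25, r = 0.996), Fcgr3 (0.25, r = 0.995) and Sirpa (0.35, r = 0.992). For Siglece they were Golm1 (0.28, r = 0.991), the sialyltransferase St3gal6 (0.38, r = 0.987) and Lrp1 (0.38, r = 0.990). Siglech was closest to Mef2c (0.24, r = 0.992), Gpr183 (0.26, r = 0.986) and Lifr (0.28, r = 0.988). Cd22 was closest to Pygl (0.19, r = 0.985), Crip2 (0.21, r = 0.979) and Slc7a11 (0.22, r = 0.985), and Siglec1 to Ephx1 (0.21, r = 0.996), Rxra (0.25, r = 0.975) and Sulf1 (0.26, r = 0.973). These values are descriptions over 9 arrays that fall into 3 populations, so genes set apart by population correlate strongly. Genes with symbols that begin like those of immunoglobulin or T cell receptor segments were passed over. Whether any of them lies near Cd22 in pattern is therefore not shown.

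The adaptors and phosphatases through which Siglecs signal were above the olfactory receptor yardstick in all 3 populations. Tyrobp was at 11.98, 11.95 and 11.87 in TZM, 12.16, 12.04 and 12.02 in microglia, and 11.35, 11.37 and 11.34 in CD8a+DC. It was not called in any comparison, at log2 fold changes of 0.58 (TZM against CD8a+DC, adjusted p = 0.00018), -0.14 (TZM against microglia, adjusted p = 0.17) and 0.72 (microglia against CD8a+DC, adjusted p = 3.5e-05). Ptpn6 averaged 9.55 ± 0.20 in TZM, 9.47 ± 0.12 in microglia and 8.92 ± 0.10 in CD8a+DC, and Ptpn11 averaged 6.78, 6.81 and 7.37 in that order. Neither was called. Inpp5d, the inositol phosphatase SHIP-1, was at 9.58, 9.22 and 9.49 in TZM and at 10.83, 10.84 and 10.66 in microglia (log2 fold change -1.35, adjusted p = 2.2e-05). Hcst, the adaptor DAP10, was higher in TZM than in microglia by 1.07 (adjusted p = 0.0042) and had a log2 fold change of 0.93 against CD8a+DC (adjusted p = 0.0078).

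Of the 14 measured signalling partners, 4 were higher and 0 lower in TZM than in CD8a+DC, with a median log2 fold change of 0.64 beside 0.015 over all genes. The largest changes were those of Fcer1g, the common signalling chain of Fc receptors (3.03), the feedback inhibitor Socs3 (1.46) and the kinase Syk (1.43). Against microglia 3 were higher, led by the kinase Fgr (2.75), and 2 lower in TZM, Inpp5d and Socs3 (-1.55), with a median of -0.08. For microglia against CD8a+DC 2 were higher, Fcer1g (3.05) and Socs3 (3.01), and Fgr was lower (-2.04), with a median of 0.36.

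Genes that make and break down sialic acid were called in part. Of 8 measured for synthesis, activation and breakdown, 2 were higher in TZM than in CD8a+DC and 0 lower. The same 2, Npl and Renbp, were higher in microglia than in CD8a+DC. Gne, Nans, Nanp, Cmas and Slc35a1, which serve synthesis and activation, were not called in any comparison. Npl, the lyase that degrades sialic acid, was at 7.45, 7.65 and 7.79 in TZM, 7.74, 7.86 and 7.95 in microglia, and 4.07, 4.41 and 3.84 in CD8a+DC. It was 11.5-fold higher in TZM than in CD8a+DC (log2 fold change 3.52, SE 0.15, adjusted p = 7.5e-07), against a CD8a+DC mean of 4.11 that was below the yardstick, so the fold may understate the difference. Cmah, the hydroxylase that converts the common form of sialic acid, was higher in TZM than in microglia by 1.29 (adjusted p = 0.0049), with the microglia mean of 4.41 also below the yardstick. Among 7 genes for sialidases and sialic acid acetylation, Ctsa, which protects the lysosomal sialidase, was higher in TZM than in CD8a+DC (2.69, adjusted p = 1.4e-06) and in microglia than in CD8a+DC (2.49, adjusted p = 1.6e-06). Casd1, an acetyltransferase for sialic acid, was higher in microglia than in CD8a+DC (1.69). None of the 7 was called between TZM and microglia. Over all genes, 8.74% were called for TZM against CD8a+DC, 7.65% for TZM against microglia and 11.2% for microglia against CD8a+DC. The gene lists are short, and none was tested as a set.

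Sialyltransferases, which attach sialic acid to glycans, split between the populations. Of 20 measured, 3 were higher and 3 lower in TZM than in CD8a+DC (median log2 fold change -0.07). Against microglia 4 were higher and 3 lower in TZM (median -0.04), and 2 were higher and 3 lower in microglia than in CD8a+DC (median 0.01). St6galnac3 was at 8.23, 7.27 and 7.24 in TZM, 3.65, 3.95 and 3.90 in microglia, and 3.60, 3.84 and 3.88 in CD8a+DC, and was higher in TZM by 3.80 against CD8a+DC and by 3.75 against microglia. This enzyme adds sialic acid to N-acetylgalactosamine. Its means in microglia (3.83) and CD8a+DC (3.77) were below the yardstick, so both differences may be understated. St3gal6 was at 6.26, 5.89 and 6.22 in TZM, 10.39, 10.45 and 10.38 in microglia, and 5.53, 5.52 and 5.48 in CD8a+DC. It was 19.5-fold lower in TZM than in microglia (-4.28, adjusted p = 3.6e-08) and 29.8-fold higher in microglia than in CD8a+DC (4.89, adjusted p = 7.1e-09). St8sia4, a polysialyltransferase, was lower in TZM than in CD8a+DC (-3.77) and in microglia than in CD8a+DC (-2.84), as was St3gal1 in microglia against CD8a+DC (-2.43). St3gal5, which makes the precursor of most gangliosides, was lower in TZM than in CD8a+DC (-3.17) and than in microglia (-3.44).

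**Figure D4:**
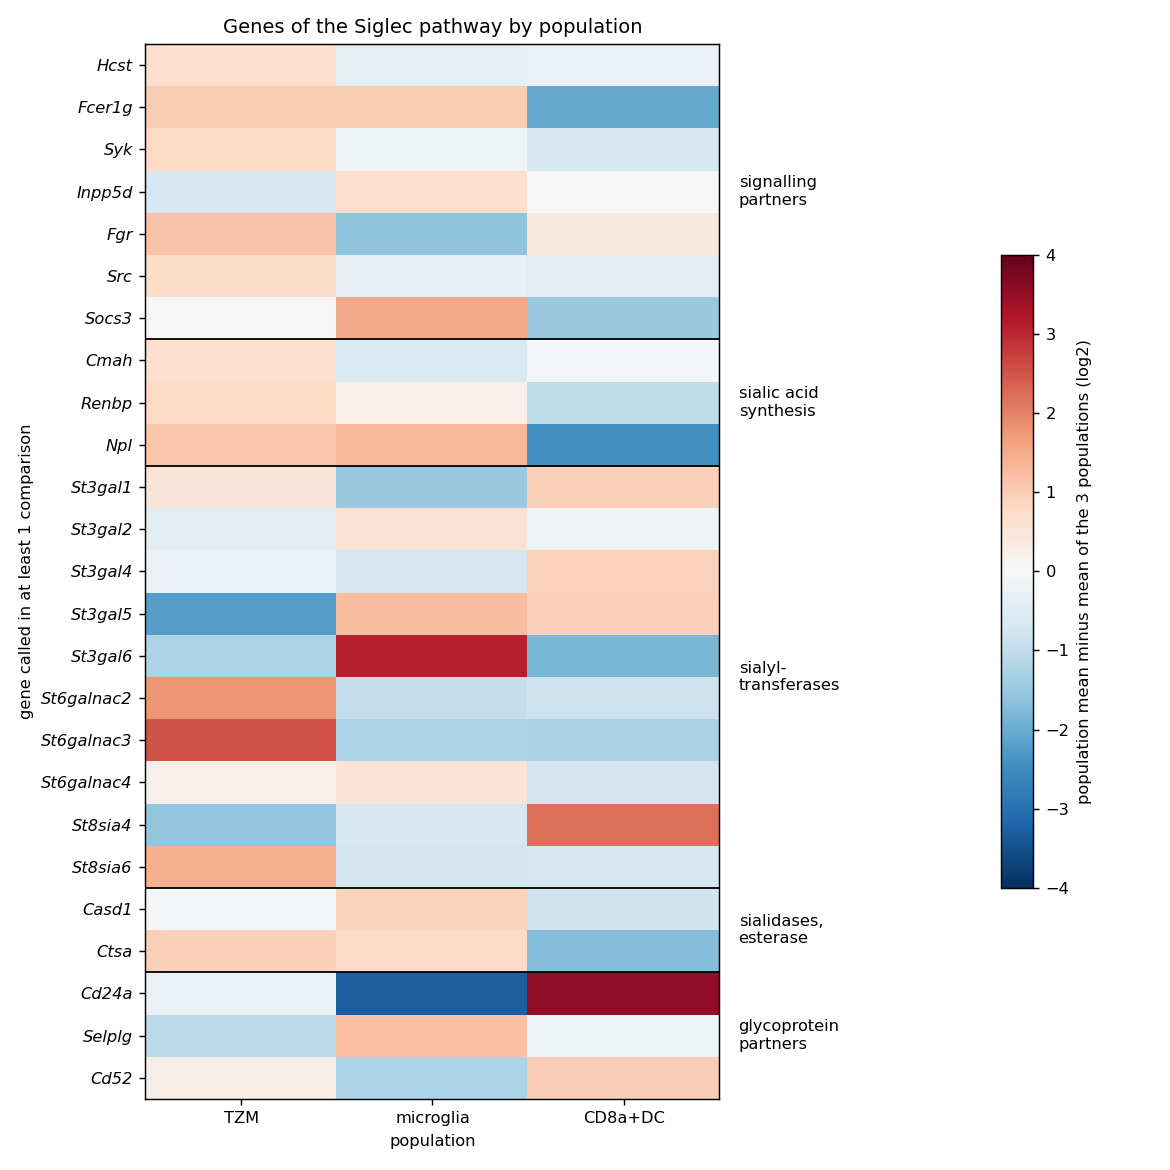
Difference of each population's mean log2 level from the mean of the 3 populations (colour) for the signalling, sialic acid and glycoprotein genes (rows) called in at least 1 comparison, in TZM, microglia and CD8a+DC (columns). St3gal6 stands out in microglia, St6galnac3 in TZM, and St8sia4 and Cd24a in CD8a+DC.

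The glycoprotein partners of Siglecs differed most in Cd24a, which encodes the CD24 bound by Siglec-G. It was at 7.00, 8.11 and 6.37 in TZM, 4.40, 3.72 and 4.22 in microglia, and 10.99, 11.08 and 10.88 in CD8a+DC, with no overlap between populations. The log2 fold change was -3.82 for TZM against CD8a+DC (SE 0.39, adjusted p = 0.00015), 3.04 for TZM against microglia (SE 0.39, adjusted p = 0.00066) and -6.87 for microglia against CD8a+DC (SE 0.39, adjusted p = 3.0e-06). The microglia mean of 4.12 was below the yardstick, so both differences that involve microglia may be understated. Of the 7 measured partners, Cd24a was the 1 called for TZM against CD8a+DC. Selplg, the mucin PSGL-1, was lower in TZM than in microglia (-2.25) and higher in microglia than in CD8a+DC (1.39). Cd52, a small sialylated glycoprotein, was higher in TZM than in microglia (1.47) and lower in microglia than in CD8a+DC (-2.22). Ptprc, which encodes CD45, belongs to the microglia gate and to this list, and it was not called in any comparison.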

How the data were processed

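RNA of the 9 sorted samples was hybridised to Affymetrix arrays, 1 per sample. The deposited values are log2 levels per probe set, which the authors made by RMA in Affymetrix Expression Console 1.3.1, per the submitters' processing notes. The genome build behind the probe sets is not given in the sources used here, and no detection calls were used. Of 35556 probe sets, 21789 had 1 gene symbol in the platform annotation, 1621 several and 12146 none. Genes were represented by their brightest probe set, which left 19938 genes (999 with more than 1 probe set). Array medians lay between 4.90 and 5.02, and arrays of 1 population correlated at 0.971 to 0.991. The small number of arrays limits the precision.

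The 3 populations were fitted together with limma 3.58.1 in R 4.3.3 (lmFit, eBayes) on all genes, without covariates, and p-values were adjusted over all genes by the Benjamini-Hochberg method. The code was tested on simulated data. Alternatives were a level filter, other scalings, other probe set rules, array weights, a replicate block and leaving out each array. The text names all 6 members, the other Siglecs measured, Tyrobp, Hcst, Ptpn6, Ptpn11 and Inpp5d, the up to 3 called genes of largest change per pathway list and comparison, the markers that state a list's range, and per member the 3 genes nearest in pattern where population means span at least 1, passing over predicted genes and small RNAs. Ptprc was added as a gate gene. The members and lists were chosen with earlier results of these data known. Promoter windows are from RefSeq (GRCm38.p6), covered 5 of 6 members and were aligned with Biopython 1.88. A planned comparison of protein sequences was not run.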

Additional observations from a re-analysis of the deposited data

How the results depend on the processing

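The number of members called was 3 in each comparison under every alternative run except the omission of the fold minimum, which gave 4 in each. Over all 19938 genes that omission gave 4025 calls for TZM against CD8a+DC, 3873 for TZM against microglia and 5006 for microglia against CD8a+DC. The main counts were 1743, 1526 and 2224 in the same order. Testing every probe set gave 2397, 2333 and 3440. Those calls are out of 35556 probe sets, so they cannot be set against the gene counts directly. The difference of Siglecg between TZM and microglia, 0.01, had no stable sign: it was -0.016 with median centring, -0.0073 with quantile normalization, -0.071 with array weights and -0.058 to 0.073 when single arrays were left out (the cause was not tested). For Cd22, microglia against CD8a+DC ranged from -0.11 to 0.15 when single arrays were left out. The adjusted p of Siglec1 in microglia against CD8a+DC ranged from 0.006 to 0.33 over the alternatives, with no call. Called members kept their direction, with Siglece in TZM against CD8a+DC at 1.03 to 1.37. Siglecg could not be tested under the level filter. Deviations from the population mean correlated little between samples of the same replicate number (-0.15 to 0.13). With 3 arrays per population this cannot settle whether such samples were paired, which the labels do not state. The replicate block gave 1732, 1510 and 2213 called genes and the same 3 members called in each comparison. With 3 arrays per population, the sign of a difference as small as that of Siglecg between TZM and microglia is uncertain. Against CD8a+DC, Siglecg in TZM kept its sign over the alternatives, at -0.49 to -0.36, but stayed under the fold minimum.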

Other observations

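T cell genes were read as a further check of the TZM sort. The mean of 5 measured T cell genes was 5.13 to 5.46 over the TZM arrays, 4.41 to 4.45 over the microglia arrays and 4.65 to 4.81 over the CD8a+DC arrays, with 2 called higher in TZM than in microglia and 0 called against CD8a+DC. The mean of 9 granulocyte genes was 4.29 to 5.07 over TZM, 3.85 to 3.91 over microglia and 3.94 to 4.02 over CD8a+DC. Of the 6 oligodendrocyte genes, 4 were at or below the olfactory receptor yardstick in every population. Values identical in all 3 arrays of a population were found for 361 genes in TZM, 415 in microglia and 397 in CD8a+DC.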
